A study of Mus musculus with 27 samples.

Results

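The 31 genes described here code for the enzymes and regulators with which mouse embryonic stem cells make cholesterol and long-chain fatty acids. They were taken by symbol from the deposited RNA table, where all 31 were found among 38582 genes with values (Msmo1 stood there under its older name Sc4mol), and all 31 were among the 12452 genes tested. By role, 7 act in the mevalonate pathway, 11 between squalene and cholesterol, 5 in regulation or transport and 8 in fatty acid synthesis and desaturation. The series examined WDR43, a WD-repeat protein known from ribosomal RNA processing in the nucleolus, on chromatin and in gene expression. RNA was measured in 2 libraries of cells with a short hairpin RNA against WDR43 (shWDR43) and 2 libraries with a control hairpin (shCtl). Chromatin immunoprecipitation (ChIP) of RNA polymerase II (Pol II) gave 2 peak lists per group for each of its hypophosphorylated form (hypoP), the form phosphorylated at serine 5 of its tail repeats (Ser5P) and that phosphorylated at serine 2 (Ser2P). FLAG-tagged WDR43 was mapped in 5 libraries of 1 peak list each, namely cells carrying Fbio-tagged WDR43 treated with DRB or actinomycin D (ActD), both inhibitors of transcription, or with their solvent DMSO, and untreated maps labelled FB and cFB-KI. All were mouse embryonic stem cells in medium with fetal calf serum and leukemia inhibitory factor, and the hairpin cells are labelled wild type. The file header calls the RNA libraries biological replicates, while the ChIP labels leave unsaid if their numbers 1 and 2 stand for cultures or hairpins, so p-values and ranges measure only the spread between these samples. In the RNA libraries Wdr43 itself had 21.2 and 20.7 FPKM in shWDR43 cells, against 82.3 and 78.2 FPKM in shCtl cells (log2 fold change -1.89 ± 0.12 SE, limma adjusted p = 0.000751).

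Cholesterol is built from acetyl-CoA through mevalonate and squalene, and fatty acids from the same precursor by a carboxylase and a synthase, followed by elongases and desaturases. Most of these genes are targets of the SREBP transcription factors, which are held in the endoplasmic reticulum with the escort protein SCAP by INSIG proteins when sterols are abundant, and are cut and released to the nucleus when sterols are scarce. SREBP2, from Srebf2, acts mainly on sterol genes, and the SREBP1c product of Srebf1 mainly on fatty acid genes. SREBPs usually act together with the factors NF-Y and Sp1 at nearby promoter boxes.

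The promoters of 5 members are shown, as 250 bases before the transcript start, 5′ to 3′ on the gene's strand, from RefSeq on GRCm38.p6. Idi1 had the lowest log2 fold change among the sterol enzymes, Hmgcs1 held the sterol response element core, Mvk did not fall, and Insig1 and Fasn are members with WDR43 and Pol II peaks in most lists. Capitals mark CCAAT, the NF-Y box, on either strand (ATTGG when it lies on the opposite strand), and the core TCACNCCAC of the sterol response element.
Idi1 (chr13:8885356-8885605, plus strand): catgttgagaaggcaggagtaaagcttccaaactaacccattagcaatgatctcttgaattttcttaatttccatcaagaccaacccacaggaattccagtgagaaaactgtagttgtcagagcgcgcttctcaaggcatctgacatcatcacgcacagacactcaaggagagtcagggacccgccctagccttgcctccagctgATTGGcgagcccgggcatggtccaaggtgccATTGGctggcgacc
Hmgcs1 (chr13:119690101-119690350, plus strand): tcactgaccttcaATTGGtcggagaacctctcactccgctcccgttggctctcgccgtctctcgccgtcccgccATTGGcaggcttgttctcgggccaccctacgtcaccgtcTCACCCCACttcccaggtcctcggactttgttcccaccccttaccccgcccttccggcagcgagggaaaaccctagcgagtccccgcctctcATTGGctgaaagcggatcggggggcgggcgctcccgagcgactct
Mvk (chr5:114444019-114444268, plus strand): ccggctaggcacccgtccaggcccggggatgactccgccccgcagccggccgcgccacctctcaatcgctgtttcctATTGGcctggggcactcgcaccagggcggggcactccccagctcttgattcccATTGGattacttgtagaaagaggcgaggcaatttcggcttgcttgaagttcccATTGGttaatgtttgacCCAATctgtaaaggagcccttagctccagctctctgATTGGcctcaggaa
Insig1 (chr5:28071162-28071411, plus strand): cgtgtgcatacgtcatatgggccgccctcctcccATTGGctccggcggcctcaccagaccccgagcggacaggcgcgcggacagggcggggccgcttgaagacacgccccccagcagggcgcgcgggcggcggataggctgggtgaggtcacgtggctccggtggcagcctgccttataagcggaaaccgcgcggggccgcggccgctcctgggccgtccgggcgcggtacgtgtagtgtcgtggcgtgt
Fasn (chr11:120824548-120824797, minus strand): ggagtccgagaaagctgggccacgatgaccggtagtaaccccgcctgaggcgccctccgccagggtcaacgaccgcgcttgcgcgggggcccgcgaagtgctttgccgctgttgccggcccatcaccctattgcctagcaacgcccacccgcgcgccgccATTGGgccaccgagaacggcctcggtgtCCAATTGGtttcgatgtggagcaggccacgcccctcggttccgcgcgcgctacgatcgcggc
The Mvk window held 5 NF-Y boxes on the 2 strands, and in Fasn a CCAAT and an ATTGG overlapped, while no GC box overlapped a marked box in these 5 windows. The peaks are on mm9, so they cannot be placed on these letters.

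RefSeq promoters of 300 bases (250 before and 50 after the start) were matched for 24 members, which had 30 promoters between them. Fdps, Fdft1, Sqle, Scd1, Scd2, Fads1 and Stard4 were not used here. CCAAT stood on either strand in 20 of the 30 promoters, or 66.7%, and in 37.4% of all 32851 promoters. The GC box GGGCGG, a letter match for Sp factors, stood in 23 of 30, or 76.7%, against 35.7% of all promoters. The core TCACNCCAC was found in 1 of 30 promoters, that of Hmgcs1, as TCACCCCAC at position -137 from the start, against 1.24% of all promoters. The E-box TCACGTGA was found in 0 of 30, against 0.974% of all promoters. These are matches of letters on either strand, and binding of these factors was not measured. The 24 members were all among the genes tested, while the 32851 promoters were not limited to expressed genes. The sets may thus differ in expression, and the difference in shares was not tested.

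RNA of most members was lower after WDR43 knockdown. Of the 31 members, 25 fell and 1 rose (limma on log2(FPKM + 1), Benjamini-Hochberg adjusted p under 0.05 over all genes tested), and 5 did not pass. The fall was part of one across the transcriptome: 42.7% of all genes tested fell and 6.1% rose. Both shWDR43 libraries lay below both shCtl libraries for 28 members, as for 63.6% of all genes, and above both for 3 members, as for 12.6% of all genes. The median log2 fold change was -0.77 over the members (quartiles -0.96 and -0.58) and -0.39 over all genes tested (quartiles -0.71 and -0.06), and 26 of the 31 members lay below the median of all genes. In summed FPKM the members held 428.3 and 378.1 in shWDR43 cells, against 739.2 and 706.7 in shCtl cells. In such bulk samples, fewer cells of a type and less RNA per cell cannot be told apart.

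Highly expressed genes fell more across the table, so the members were also set against genes of like level. Of 5 bins of equal gene number, in the bin with mean FPKM between 5.675 and 11.6, 13 members had a median log2 fold change of -0.77 and all genes -0.36. In the next bin, up to 27.175 FPKM, the median was -0.81 over 7 members and -0.49 over all genes. In the highest bin it was -0.90 over 8 members and -0.71 over all genes. The members' median was thus the lower one in each, by the smallest margin in the highest bin.

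**Figure D1:**
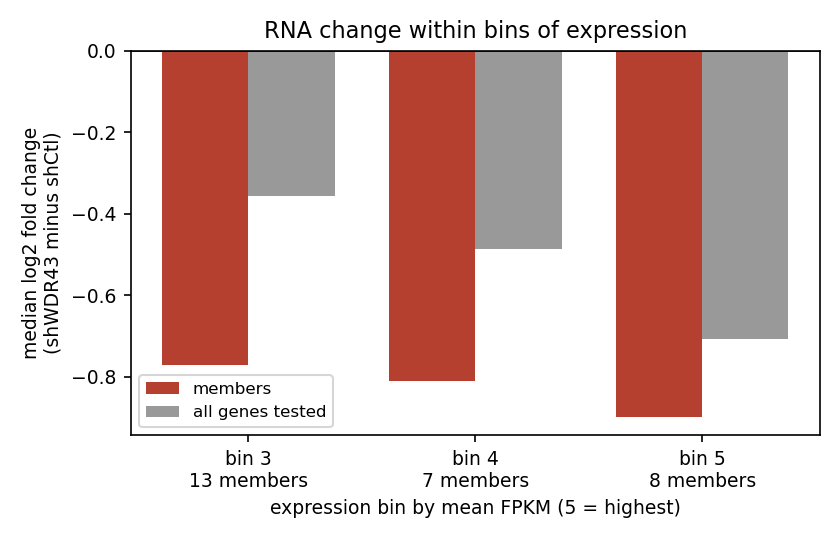
Median log2 fold change (shWDR43 minus shCtl, on log2(FPKM + 1)) of the members and of all genes tested, in bins 3, 4 and 5 of mean FPKM, which hold 28 of the 31 members. The bars of the members reach -0.77, -0.81 and -0.90, against -0.36, -0.49 and -0.71 for all genes.

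The counts depend on the deposited spike-in scale, and how that scale was made is not given here. Centring each library on its median, which shifts all fold changes up by 0.33 on the log2 scale, left 16 members lower and 3 higher, against 20.9% and 13.0% of all genes, with medians of -0.44 and -0.06. Without a filter on low values 4 members passed as lower, beside 633 of 38582 genes. With any 1 of the 4 libraries left out 0 of all 12452 genes passed in limma, members included, while 20 to 26 members had an unadjusted p under 0.05 as lower and 0 or 1 as higher. With 2 libraries against 2, the smallest p of an exact permutation test of a single gene is 0.333. In the authors' deposited table, 22 of the 31 members were at least 1.5-fold lower at p under 0.05 and 0 were higher, against 4609 and 1259 of all 38582 genes. Of these genes only 12452 reached the mean of 1 FPKM that all 31 members reached, so the sets differ in expression.

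**Figure D2:**
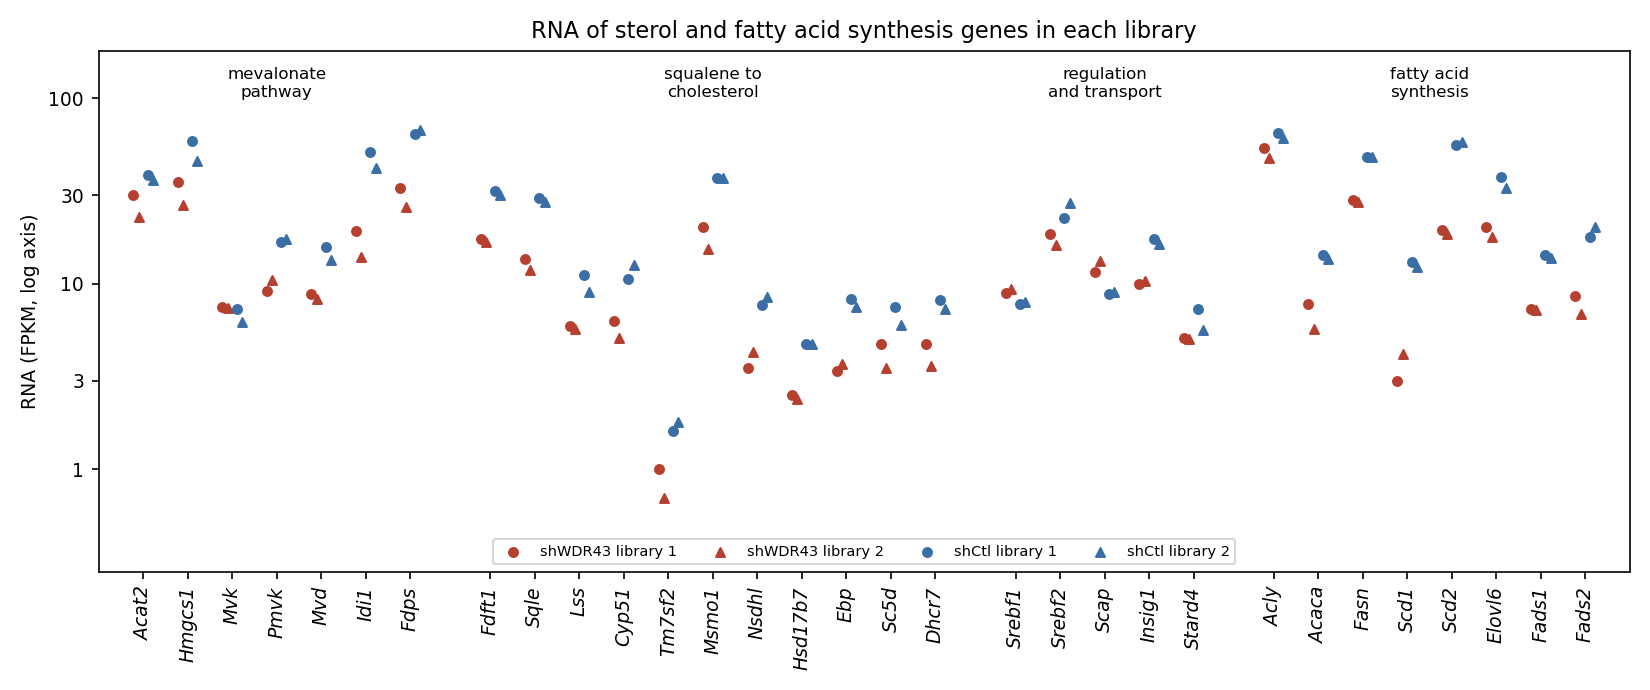
FPKM (log axis) of each member in the 2 shWDR43 and the 2 shCtl libraries, grouped by role. The shWDR43 points lie below both shCtl points for 28 members, and above both for Mvk, Srebf1 and Scap.

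In the mevalonate pathway 6 of 7 members fell, with a median log2 fold change of -0.74. With centred libraries 2 were lower, Idi1 and Fdps, and 1 was higher, Mvk, while Acat2 (adjusted p = 0.349), Hmgcs1 (0.0757), Pmvk (0.0543) and Mvd (0.0527) no longer passed. Acat2, which joins 2 acetyl-CoA molecules in the cytosol, had 30.2 and 22.9 FPKM in shWDR43 cells, against 38.3 and 36.4 FPKM in shCtl cells, or -0.49 ± 0.16 SE as log2 fold change (adjusted p = 0.0407). Hmgcs1, the HMG-CoA synthase, had 35.5 and 26.6 FPKM in shWDR43 cells, against 58.7 and 45.9 FPKM in shCtl cells, and -0.74 ± 0.19 SE (adjusted p = 0.0166). Mvk, the mevalonate kinase that follows, was the exception. It had 7.5 and 7.4 FPKM in shWDR43 cells, against 7.3 and 6.2 FPKM in shCtl cells, and its log2 fold change was 0.13 ± 0.14 SE, which did not pass (adjusted p = 0.481). Relative to the library medians it stood higher, at 0.46 (adjusted p = 0.0344). A link between these values and its promoter, printed above, was not tested.

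The kinase and decarboxylase after it differed from Mvk in direction. Pmvk, which adds the next phosphate, had 9.1 and 10.5 FPKM in shWDR43 cells, against 16.8 and 17.4 FPKM in shCtl cells (log2 fold change -0.75, adjusted p = 0.00529). Mvd, the decarboxylase, had 8.8 and 8.3 FPKM in shWDR43 cells, against 15.7 and 13.4 FPKM in shCtl cells (-0.70, adjusted p = 0.00747). Within the pathway the lowest fold changes were those of its last steps. Idi1, the isomerase that makes dimethylallyl diphosphate (mm9 chr13:8884852-8891642), had 19.3 and 14.0 FPKM in shWDR43 cells, against 51.0 and 42.1 FPKM in shCtl cells, or -1.44 ± 0.18 SE (adjusted p = 0.00184). Fdps, the farnesyl diphosphate synthase (mm9 chr3:88897510-88905889), had 32.8 and 26.0 FPKM in shWDR43 cells, against 64.3 and 67.2 FPKM in shCtl cells, or -1.14 ± 0.15 SE (adjusted p = 0.00192). In both genes the groups were far apart relative to the spread within each.

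Between squalene and cholesterol 10 of 11 members fell, with a median log2 fold change of -0.81, and in all 11 both shWDR43 libraries lay below both shCtl libraries. With centred libraries 7 were lower, while Lss (adjusted p = 0.0776), Hsd17b7 (0.0812) and Sc5d (0.214) no longer passed. Fdft1, the squalene synthase, had 17.5 and 16.7 FPKM in shWDR43 cells, against 31.6 and 29.9 FPKM in shCtl cells (log2 fold change -0.81). Sqle, the squalene epoxidase and a rate-limiting step, had 13.5 and 11.8 FPKM in shWDR43 cells, against 28.9 and 27.6 FPKM in shCtl cells, or -1.10 ± 0.14 SE (adjusted p = 0.00171). Lss, which closes the ring to lanosterol, had 5.9 and 5.7 FPKM in shWDR43 cells, against 11.2 and 9.0 FPKM in shCtl cells (-0.70). The 2 groups did not overlap in any of these. Msmo1, the methylsterol oxidase, had 20.2 and 15.3 FPKM in shWDR43 cells, against 36.9 and 37.0 FPKM in shCtl cells (-1.03). Ebp, the sterol isomerase, had 3.4 and 3.7 FPKM in shWDR43 cells, against 8.3 and 7.5 FPKM in shCtl cells (-0.97). Cyp51, the lanosterol demethylase, had 6.3 and 5.1 FPKM in shWDR43 cells, against 10.6 and 12.6 FPKM in shCtl cells (-0.91).

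The remaining enzymes of this stretch were among the less expressed members. Nsdhl, a sterol dehydrogenase, had 3.5 and 4.3 FPKM in shWDR43 cells, against 7.7 and 8.5 FPKM in shCtl cells (log2 fold change -0.90). Dhcr7, which makes cholesterol from its dehydro precursor, had 4.7 and 3.6 FPKM in shWDR43 cells, against 8.2 and 7.3 FPKM in shCtl cells (-0.77). Hsd17b7, a ketosteroid reductase, had 2.5 and 2.4 FPKM in shWDR43 cells, against 4.7 FPKM in both shCtl libraries (-0.72). The fold changes of these enzymes and of Sc5d, a desaturase, passed the threshold on the deposited scale, and with centred libraries those of Hsd17b7 and Sc5d did not. Sc5d had 4.7 and 3.5 FPKM in shWDR43 cells, against 7.5 and 6.0 FPKM in shCtl cells (-0.61, adjusted p = 0.0300). Tm7sf2, a sterol reductase that shares its reaction with Lbr, was the one that did not pass, with 1.0 and 0.7 FPKM in shWDR43 cells, against 1.6 and 1.8 FPKM in shCtl cells (-0.55 ± 0.22 SE, adjusted p = 0.0726). At such levels the added pseudocount of 1 makes the fold change smaller than the ratio of the values.

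The 5 regulators and transporters did not move together: 2 fell, 1 rose and 2 did not pass, and their median log2 fold change was -0.29, or 0.04 with libraries centred on their medians. Srebf2, the SREBP2 gene, had 18.5 and 16.1 FPKM in shWDR43 cells, against 22.7 and 27.1 FPKM in shCtl cells (log2 fold change -0.50, adjusted p = 0.0303). Insig1, the retention protein and itself an SREBP target, had 9.9 and 10.3 FPKM in shWDR43 cells, against 17.5 and 16.4 FPKM in shCtl cells (-0.69, adjusted p = 0.00572). With centred libraries neither fall passed, at -0.17 for Srebf2 (adjusted p = 0.351) and -0.36 for Insig1 (adjusted p = 0.0513). Scap, the escort protein, was the member that rose, with 11.5 and 13.3 FPKM in shWDR43 cells, against 8.8 and 9.0 FPKM in shCtl cells (0.43 ± 0.14 SE, adjusted p = 0.0376). Srebf1 had 8.9 and 9.4 FPKM in shWDR43 cells, against 7.8 and 8.0 FPKM in shCtl cells (0.19 ± 0.13 SE, adjusted p = 0.265). It did not pass on the deposited scale and was higher with centred libraries, at 0.52 (adjusted p = 0.0208), where Scap stood at 0.76 (adjusted p = 0.00784). Stard4, a sterol carrier, had 5.1 and 5.0 FPKM in shWDR43 cells, against 7.3 and 5.6 FPKM in shCtl cells (-0.29, adjusted p = 0.175).

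In fatty acid synthesis and desaturation 7 of 8 members fell, with a median log2 fold change of -0.91, and these 7 were also lower with centred libraries. Acly, which splits citrate into cytosolic acetyl-CoA, did not pass, with 53.6 and 47.3 FPKM in shWDR43 cells, against 65.0 and 61.3 FPKM in shCtl cells (-0.32 ± 0.13 SE, adjusted p = 0.0763, or 0.01 when centred). Acaca, the carboxylase that commits acetyl-CoA to fatty acids, had 7.8 and 5.7 FPKM in shWDR43 cells, against 14.3 and 13.5 FPKM in shCtl cells (-0.96). The Acaca row covers a transcript of only 22370 bp, so its values may not describe the whole gene. Fasn, the fatty acid synthase, had 28.1 and 27.7 FPKM in shWDR43 cells, against 48.2 FPKM in both shCtl libraries (-0.77 ± 0.12 SE, adjusted p = 0.0032). The elongase and desaturases were lower as well. Elovl6, an elongase, had 20.1 and 17.9 FPKM in shWDR43 cells, against 37.6 and 32.6 FPKM in shCtl cells (-0.85). Fads1, the delta-5 desaturase of polyunsaturated fatty acids, had 7.3 and 7.2 FPKM in shWDR43 cells, against 14.2 and 13.7 FPKM in shCtl cells (-0.86). Fads2, the delta-6 desaturase, had 8.6 and 6.9 FPKM in shWDR43 cells, against 17.8 and 20.3 FPKM in shCtl cells, or -1.20 ± 0.16 SE (adjusted p = 0.00191).

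The lowest fold changes of all members were those of the stearoyl-CoA desaturases, which make monounsaturated fatty acids. Scd1 (mm9 chr19:44468940-44482199) had 3.0 and 4.2 FPKM in shWDR43 cells, against 13.0 and 12.3 FPKM in shCtl cells, or -1.58 ± 0.17 SE (adjusted p = 0.0013). Scd2 (mm9 chr19:44368166-44381352) had 19.5 and 18.6 FPKM in shWDR43 cells, against 55.7 and 58.2 FPKM in shCtl cells, or -1.53 ± 0.12 SE (adjusted p = 0.00102). These neighbouring genes are closely alike in sequence, and how shared reads were counted is not stated here, so the split between them is uncertain. The locus of Scd1 also overlaps the noncoding BC114417, which had 2.7 and 2.2 FPKM in shWDR43 cells, against 10.8 and 9.1 FPKM in shCtl cells.

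**Figure D3:**
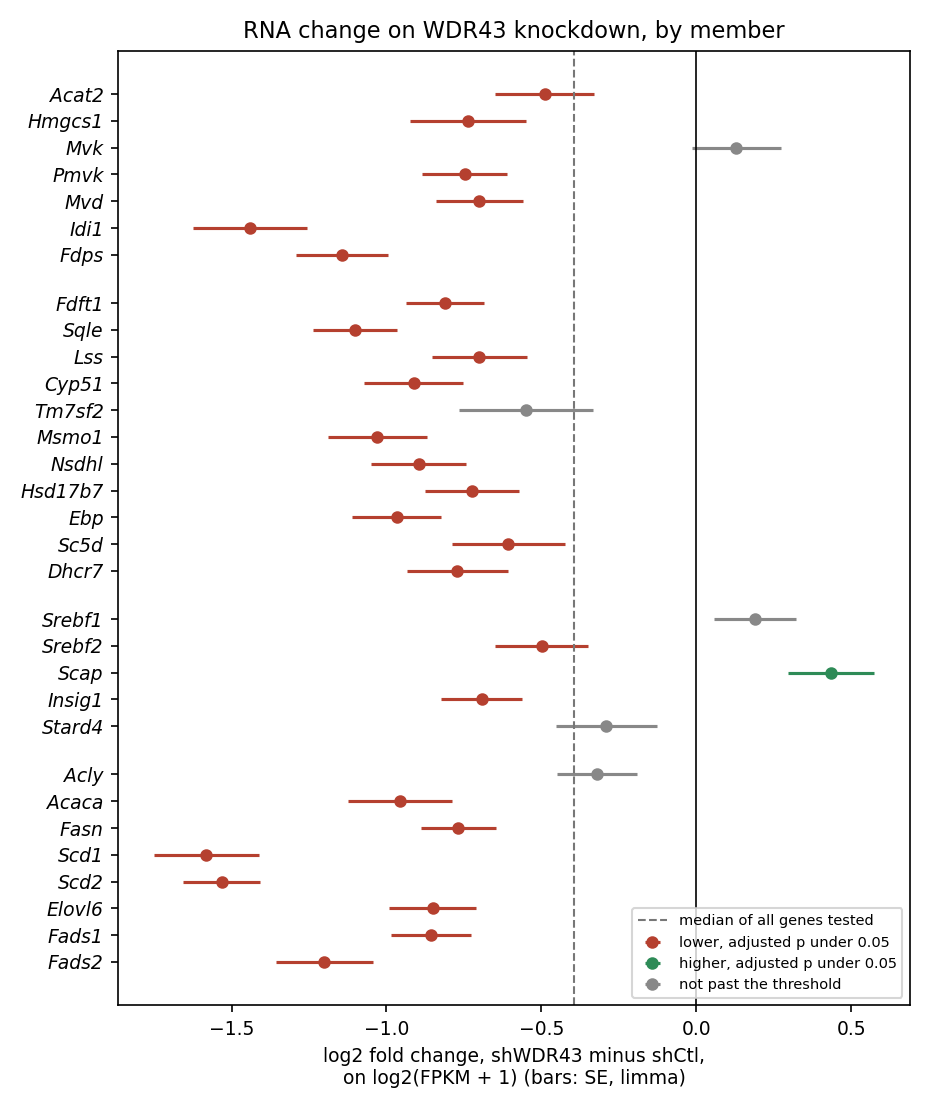
Log2 fold change (shWDR43 minus shCtl) of each member with its SE from limma, by role from the mevalonate pathway at the top to fatty acid synthesis at the bottom. Points run from -1.58 for Scd1 to 0.43 for Scap, with the dashed line at the median of all genes tested, -0.39.

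Other genes of lipid metabolism outside the 31 are given for comparison. Of all genes tested 42.7% fell and 6.1% rose, and no list below had a larger share of either. Of 24 tested genes for other steps of sterol and isoprenoid metabolism and transport, 10 fell and 1 rose, with a median log2 fold change of -0.28. The lowest were Lbr, a sterol reductase and nuclear envelope protein, at -1.21 and Tmem97, a regulator of NPC1, at -1.13. Abca1, a cholesterol exporter, rose by 0.61 and Abcg1, another exporter, had 0.51 and did not pass. Of 33 tested genes for other fatty acid and glycerolipid steps, 14 fell and 2 rose, with a median of -0.42. There the lowest were Mid1ip1, an activator of acetyl-CoA carboxylase, at -1.41 and Acsl3, an acyl-CoA synthetase, at -1.17, while Lpin1, a phosphatidate phosphatase, rose by 1.32 and Elovl1, an elongase, by 0.47. Of 20 fatty acid oxidation genes, 6 fell and 1 rose, with a median of -0.30, from Acadm, an acyl-CoA dehydrogenase, at -0.94 and Acaa1a, a peroxisomal thiolase, at -0.86 to Acadvl, another dehydrogenase, at 0.40, which did not pass, and Slc25a20, the carnitine carrier, at 0.60. All these values are on the deposited scale, where the median of all genes was -0.39, and the difference between lists was not tested.

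Markers of cell identity also differed between the groups. Of all genes tested 42.7% fell and 6.1% rose. Of 8 pluripotency markers 7 fell, and they summed to 2705.3 and 2534.7 FPKM in shWDR43 cells, against 4968.3 and 5074.6 FPKM in shCtl cells. All 8 lay in the highest expression bin, where 1952 of 2491 genes fell. With centred libraries 5 of the 8 were lower, beside 1310 of the 2491 genes. Of 6 trophoblast markers 2 were tested and both rose, with the list at 9.8 and 10.3 FPKM in shWDR43 cells, against 2.9 and 3.5 FPKM in shCtl cells. These 2 were the keratin genes Krt7 and Krt19, which held most of the sums. Cdx2 stayed at or below 0.3 FPKM and Elf5 at or below 0.1 FPKM, with overlap between the groups. Gata3 and Hand1 stayed below 1 FPKM and were higher in both shWDR43 libraries than in both shCtl libraries. Endoderm markers, of which 2 of 6 were tested and 1 rose, summed to 4.1 and 3.8 FPKM in shWDR43 cells, against 1.9 and 1.7 FPKM in shCtl cells, with Ttr at 0 in every library. Fibroblast markers, of which 4 of 8 were tested and 1 fell, summed to 36.6 and 63.8 FPKM in shWDR43 cells, against 30.2 and 41.6 FPKM in shCtl cells, with Lum and Dcn at 0 throughout. Neural markers, of which 4 of 6 were tested and 2 fell, summed to 20.7 and 20.8 FPKM in shWDR43 cells, against 37.6 and 32.9 FPKM in shCtl cells. The part of cell identity in the members' RNA values was not tested.

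WDR43 itself was mapped at the ends of most member loci, as at most expressed genes. A peak within 1 kb of either end of the locus was found for 24 members in the FB map and 25 in the cFB-KI map. These are 77.4% and 80.6% of members, against 86.1% and 84.6% of all 10669 tested protein-coding loci. In the DMSO library 23 members, or 74.2%, had such a peak, against 71.0% of all loci. Of the members 2, Hmgcs1 and Mvd, are not marked as protein-coding, so they are not among the 10669 loci. The FB and cFB-KI maps shared 21 members, which are 87.5% and 84.0% of their lists, and 19 members had a peak in FB, cFB-KI and DMSO alike. Where RefSeq gave a strand, the highest-scoring of these peaks was at the 5′ end for 17 of 19 members in FB, 17 of 19 in cFB-KI and 16 of 18 in DMSO. Hmgcs1, Nsdhl and Acaca had none at an end in any of the 3 maps. The Hmgcs1 row lies on the unplaced chr13_random, on which 13 of the 17 lists hold any peak, and the Acaca row covers a transcript of only 22370 bp, with peaks inside it in all 3 maps.

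Both transcription inhibitors went with far fewer WDR43 peaks. With DRB, which blocks elongation, 6 members had an end peak, against 23 with DMSO, and with ActD 0 did. Of all loci 10.5% had one with DRB and 0.244% with ActD. The 6 members with DRB were Mvk, Nsdhl, Srebf2, Scap, Insig1 and Fasn, and each of the 6 peaks was nearer to the 5′ end. Of these, 5 also had an end peak with DMSO, which is 83.3% of the DRB list and 21.7% of the DMSO list. Nsdhl was the other, with a DMSO peak inside the locus only. At Mvk and Nsdhl the centre of the DRB peak lay at -423 and -409.5 bases from the start of the locus, beyond gaps of 278 bp to Mmab and 176 bp to Cetn2, so both may belong to those neighbours. At Insig1 the DRB peak spanned mm9 chr5:28397840-28397993, with its centre at -35 bases from the start of the locus, and had a score of 50.5. At Scap it spanned chr9:110235942-110236118 and had a score of 70.84, the highest of the 6. The scores are the authors' own and the median of the whole DRB list was 61.59. At a score of at least 100, 0 members had an end peak with DRB, against 11 with DMSO, beside 1.15% and 41.9% of all loci. There was 1 library per treatment and its depth is unknown, so these counts have no replicate check.

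**Figure D4:**
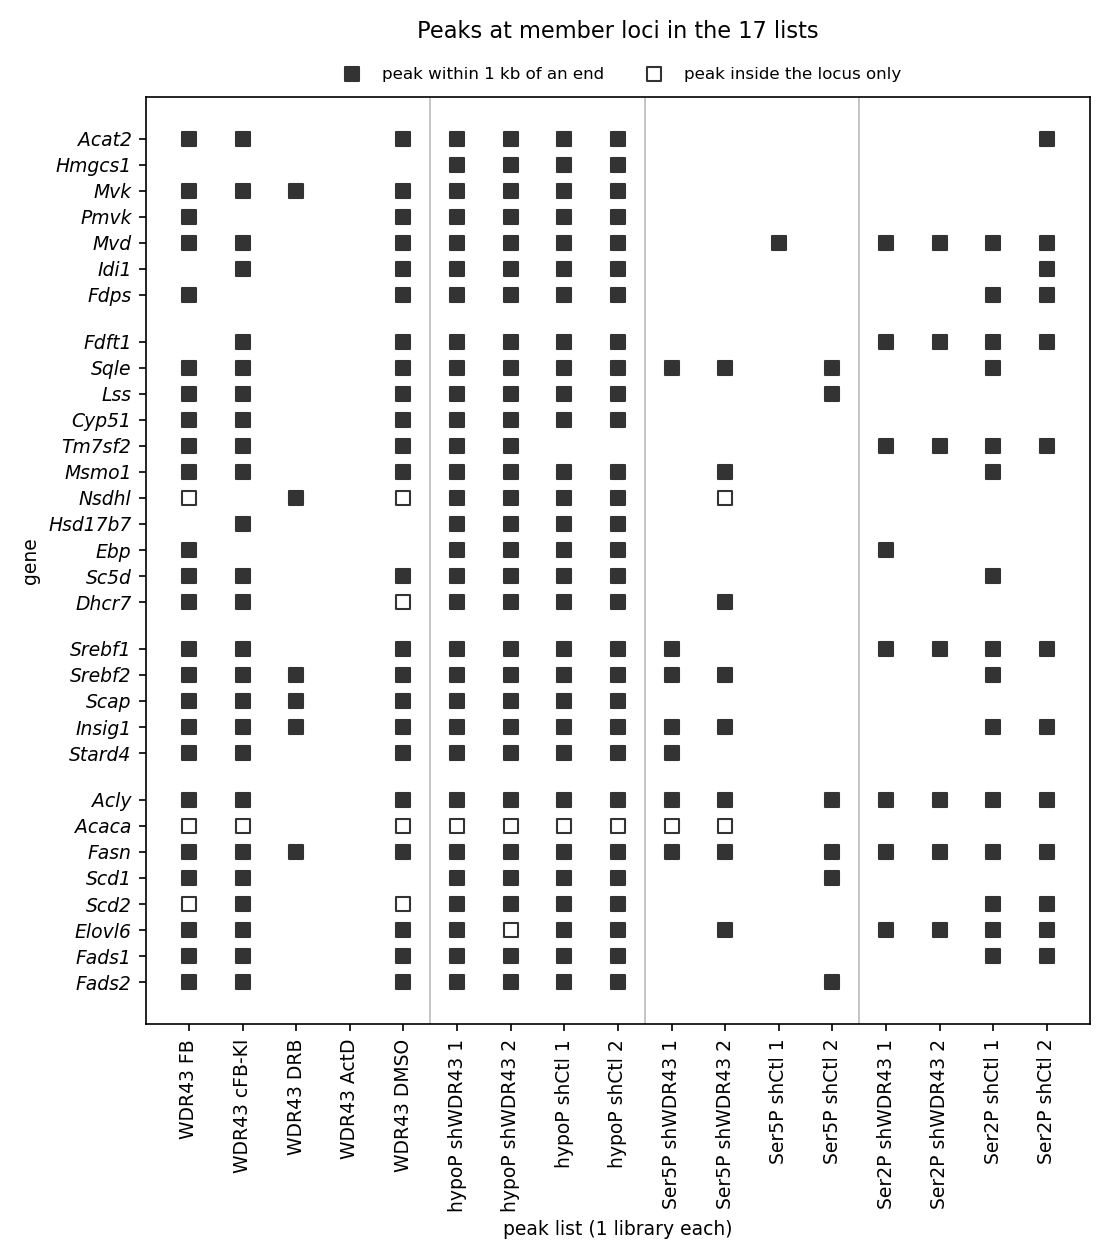
Peaks at the 31 member loci (rows, by role) in each of the 17 peak lists (columns), filled where a peak lies within 1 kb of a locus end and open where it lies only inside. The 12 Pol II columns stand right of the 5 WDR43 columns, and Ser2P end peaks number 8 and 7 in the shWDR43 lists and 15 and 13 in the shCtl lists.

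HypoP Pol II, the form that enters at promoters, was at nearly all member loci in both groups. An end peak in both lists of the group was found for 29 members in shWDR43 cells, against 29 in shCtl cells, beside 89.6% and 85.6% of all loci. Tm7sf2 had one in both shWDR43 lists and in neither shCtl list, as did 2.45% of all loci, and the reverse held for 0 members and 0.234% of all loci. Anywhere in the locus or 1 kb around it, 31 members had a peak in both shWDR43 lists, against 30 in both shCtl lists, beside 92.6% and 88.5% of all loci. The Tm7sf2 locus overlaps Vps51, so its peaks may belong to either gene. The highest end score of a member was that of Insig1 in each of the 4 lists, at 2408 and 1967 in shWDR43 cells and 1954 and 1666 in shCtl cells, values that are not scaled between lists. The length under hypoP peaks within the locus and 1 kb on each side was longer in both shWDR43 lists than in both shCtl lists for 15 members, or 48.4%, beside 44.1% of all loci, and shorter for 0 members, beside 2.17%. At Scap it was 4753 and 3533 bp in shWDR43 cells, against 1136 and 1392 bp in shCtl cells. At Pmvk it was 3075 and 2947 bp in shWDR43 cells, against 1172 and 1327 bp in shCtl cells. Ptpn23 lies 142 bp beyond the 3′ end of Scap, so part of the length there may belong to it. Of the 15 members, Scap was the only one whose RNA rose. RNA of Tm7sf2, Srebf1 and Acly did not pass, and that of the others, Pmvk among them, fell.

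Ser5P Pol II, the form of early transcription, had few peaks at these genes. In both shWDR43 lists 5 members had an end peak, namely Sqle, Srebf2, Insig1, Acly and Fasn, and in both shCtl lists 0 did, beside 20.0% and 3.51% of all loci. The single lists held 7 and 8 members in shWDR43 cells, against 1 and 6 in shCtl cells, beside 30.1% and 35.3% of all loci in shWDR43 cells and 9.82% and 12.7% in shCtl cells. Srebf2 and Insig1 had an end peak in both shWDR43 lists and in neither shCtl list, as did 11.2% of all loci, and the reverse held for 0 members and 0.328% of all loci. Anywhere in the locus or 1 kb around it, 6 members had a peak in both shWDR43 lists, against 0 in both shCtl lists, beside 22.1% and 4.06% of all loci. The length under Ser5P peaks was longer in both shWDR43 lists for Srebf2, Insig1, Acly, Acaca and Fasn, and this share of members, 16.1%, was not above the 20.4% of all loci. It was shorter for 0 members, beside 0.366% of all loci. Srebf2 had 729 and 1100 bp under Ser5P peaks in shWDR43 cells, against 0 bp in both shCtl lists. At a score of at least 100, 0 members had a Ser5P end peak in both shWDR43 lists, beside 3.33% of all loci.

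Ser2P Pol II, the form of productive elongation that gathers near transcript ends, was under fewer and shorter peaks at these genes after knockdown. An end peak was found for 8 and 7 members in the shWDR43 lists, against 15 and 13 in the shCtl lists. Of all loci 24.2% and 24.7% had one in the shWDR43 lists, against 27.2% and 29.4% in the shCtl lists. An end peak was found in both lists of the group for 7 members in shWDR43 cells, against 11 in shCtl cells. Of all loci 19.3% had one in both shWDR43 lists and 22.2% in both shCtl lists. Counted anywhere in the locus or 1 kb around it the members' numbers were again 7 and 11, beside 20.7% and 23.6% of all loci. Fdps, Insig1, Scd2 and Fads1 had a peak in both shCtl lists and in neither shWDR43 list, which is 12.9% of members and 3.21% of all loci. The reverse was found for 0 members and 1.23% of loci. The share with an end peak in both shCtl lists was 35.5% of members, beside 22.2% of all loci. Of these 11 members 4 had none in either shWDR43 list, beside 342 of 2365 such loci. The difference between members and all loci was not tested. Where RefSeq gave a strand, the highest-scoring end peak was at the 3′ end for 6 of 7 and 6 of 6 members in the shWDR43 lists, against 9 of 10 and 9 of 9 in the shCtl lists. With a share of at least 0.5 of the peak required inside the window, 4 members were counted in shWDR43 cells, against 4 in shCtl cells, beside 9.51% and 9.13% of all loci. At a score of at least 100, 1 member had an end peak in both shWDR43 lists, against 4 in both shCtl lists, beside 8.74% and 9.07% of all loci.

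The length under Ser2P peaks, summed over the 31 loci with 1 kb on each side, was 10.45 and 12.49 kb in shWDR43 cells, against 29.37 and 31.81 kb in shCtl cells. Over all 10669 loci it was 4590 and 4605 kb in shWDR43 cells, against 5383 and 6195 kb in shCtl cells. It was shorter in both shWDR43 lists than in both shCtl lists for 8 members, beside 12.7% of all loci, and longer for 0, beside 2.95%. Only a locus with a peak can be shorter. Among the 18 members with any Ser2P peak the shorter share was 44.4%, beside 29.9% of 4538 such loci. The 8 were Mvd, Fdps, Fdft1, Srebf1, Insig1, Fasn, Scd2 and Fads1. Their RNA fell, except that of Srebf1, which did not pass. The mevalonate genes held 0.92 and 0.894 kb in shWDR43 cells, against 2.471 and 4.649 kb in shCtl cells. The genes between squalene and cholesterol held 4.965 and 3.977 kb in shWDR43 cells, against 8.661 and 4.906 kb in shCtl cells, and there the groups overlapped. The regulators held 1.881 and 2.235 kb in shWDR43 cells, against 5.653 and 5.787 kb in shCtl cells. The fatty acid genes held 2.679 and 5.389 kb in shWDR43 cells, against 12.59 and 16.47 kb in shCtl cells. Shorter lengths were not limited to the members. The 24 other sterol genes held 4.118 and 7.743 kb in shWDR43 cells, against 11.52 and 15.88 kb in shCtl cells, with no overlap. The 33 other fatty acid genes held 8.457 and 16.56 kb in shWDR43 cells, against 16.28 and 20.83 kb in shCtl cells, with overlap. Fatty acid oxidation genes held 8.91 and 5.311 kb in shWDR43 cells, against 7.029 and 6.709 kb in shCtl cells, and the groups overlapped there. With 2 lists a group, the smallest p of an exact permutation test is 0.333, and whether the depth of the ChIP libraries differed between the groups is unknown.

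Scd2 lost the longest of these peaks. It had 0 bp in both shWDR43 lists, against 4467 and 3990 bp in the shCtl lists, where the peaks ran on past the right end of the locus (mm9 chr19:44377886-44384456 in list 1), with scores of 57.93 and 51.31 near the lowest score of 50 in the lists. At Insig1 there were 0 bp in both shWDR43 lists, against 1161 and 1290 bp in the shCtl lists, at its 3′ end (chr5:28405042-28407462 in list 1, score 94.72). Insig1 kept its hypoP end peak in all 4 lists and had Ser5P end peaks in the shWDR43 lists only. Fdps had 0 bp in both shWDR43 lists, against 1290 and 1668 bp in the shCtl lists, with scores of 148.95 and 116.05. Fads1 had 0 bp in both shWDR43 lists, against 1782 and 1894 bp in the shCtl lists. Other members kept a shorter peak. Fasn had 1314 and 1335 bp in shWDR43 cells, against 2528 and 1967 bp in shCtl cells. Srebf1 had 1881 and 2235 bp in shWDR43 cells, against 3330 and 4497 bp in shCtl cells. Fdft1 had 1765 and 1657 bp in shWDR43 cells, against 2805 and 3001 bp in shCtl cells. The Srebf1 locus overlaps Rai1 and that of Fdft1 overlaps Ctsb, so these peaks may belong in part to the neighbours. Mvd differed least, with 920 and 894 bp in shWDR43 cells, against 1181 and 1118 bp in shCtl cells. Cyba lies 655 bp beyond the 3′ end of Mvd, so part of this length may belong to Cyba. Tm7sf2, Acly and Elovl6 had Ser2P peaks in all 4 lists and lengths that overlapped between the groups. Ebp had a Ser2P peak in a single shWDR43 list only, and Acat2, Idi1, Sqle, Msmo1, Sc5d and Srebf2 in a single shCtl list only. Of the 31 members, 13 had 0 bp in every Ser2P list. Among them Scap rose in RNA, Mvk and Stard4 did not pass, and Hmgcs1, Pmvk, Lss, Cyp51, Nsdhl, Hsd17b7, Dhcr7, Acaca, Scd1 and Fads2 fell. The Hmgcs1 row lies on an unplaced sequence and the Acaca row covers a short transcript. Ser2P peaks of these genes may thus lie outside the loci counted.

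**Figure D5:**
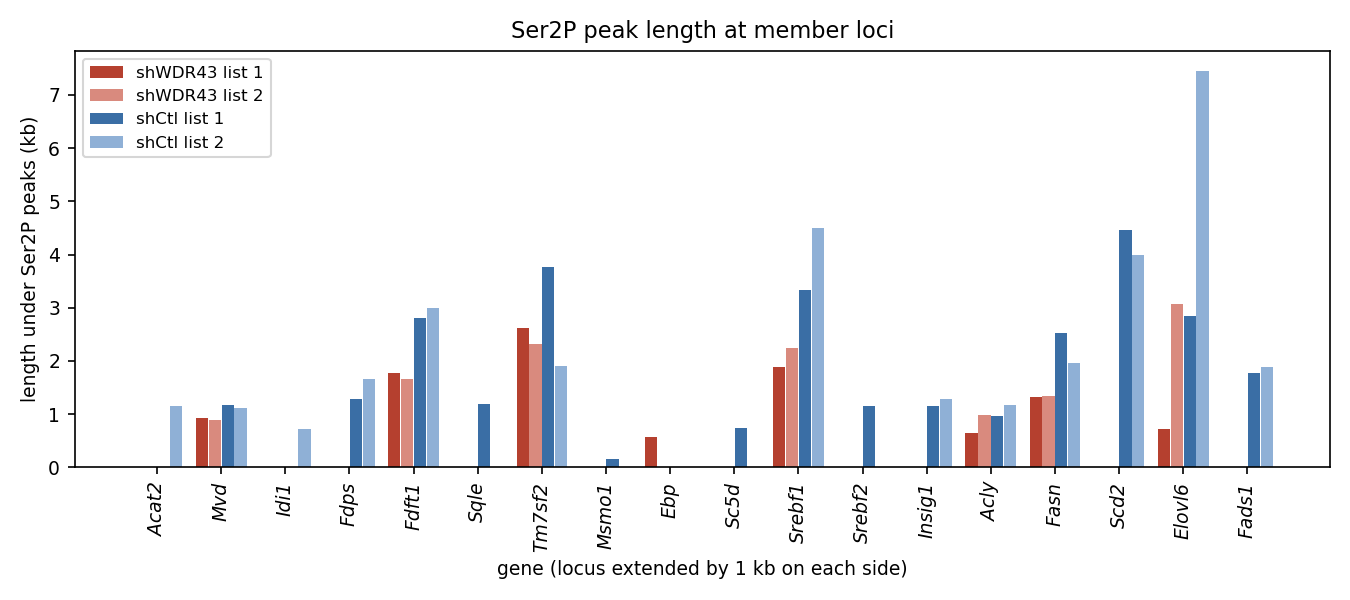
Length under Ser2P peaks (kb) in the locus and 1 kb on each side, for the 18 members with any such peak, in the 2 shWDR43 and the 2 shCtl lists. Fdps, Insig1, Scd2 and Fads1 have bars in the shCtl lists only, and Scd2 reaches 4467 and 3990 bp there.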

How the data were processed

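RNA was measured in 4 libraries and ChIP peaks in 17 lists. The other 6 of the 27 labelled samples are not analysed here. The authors deposited 1 value per gene and library with 1 decimal. FPKM was inferred from Cufflinks, named with TopHat and mm9 per the submitters' processing notes. The table's title mentions spike-in, with no account of the scaling in the sources used here. Dynabeads were used to isolate mRNA, per the labels. Summed FPKM was 687051 and 681178 in shWDR43 cells and 1015232 and 1040749 in shCtl cells, and read depth is unknown. The authors' deposited table also gives a signed fold change, a ratio of group means, and a p-value per gene. Peak lists carry the authors' deposited score per peak, at least 50, from MACS per the peak names. ChIP reads were aligned with Bowtie2 to mm9, per the submitters' processing notes, and depth is unknown.

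The 32.3% of genes whose mean FPKM reached 1 were compared on log2(FPKM + 1) with limma 3.58.1 (R 4.3.3), fitting an intensity trend, and p-values were adjusted by Benjamini-Hochberg. The fit was tested on simulated data. This scale understates changes of low genes. Peaks were called per library and assigned to a locus by an overlap of at least 1 bp with 1 kb on either side of an end, or with the locus and 1 kb around it (Python 3.11.15). Loci were read as 0-based starts and are printed 1-based. Strand came from RefSeq for 24 members. Neither exons nor the strand of counting are given in the sources used here, so overlapping loci are uncertain. Every member is named, with Wdr43 and the 2 highest and 2 lowest genes of each other lipid list. Members and lists were chosen with earlier results of these data known. BC114417 and other overlapping genes were named after their values were seen.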

Additional observations from a re-analysis of the deposited data

How the results depend on the processing

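With a pseudocount of 0.1 the members' median log2 fold change was -0.88. Centring the libraries gave 16 lower and 3 higher members and a median of -0.44. Without a filter on low values 4 were lower and 0 higher (633 and 277 of 38582 genes), beside 24 and 2 members at an unadjusted p under 0.05. With 1 library left out 0 members were lower and 0 higher each time in limma, as were 0 of all 12452 genes (the lone library is assumed to vary like the other group), beside 20 to 26 and 0 to 1 at an unadjusted p under 0.05. The medians then ran from -0.83 to -0.75, and 28 members stayed below 0. Replicate numbers did not pair the samples (correlation of deviations 0.0504). With the replicate number as a block 26 members were lower and 1 higher, Acly passing in addition, and all genes had 5926 lower and 840 higher. Requiring a mean of at least 5 left 29 members, 24 of them lower. Without the trend 25 were lower, Tm7sf2 passing in place of Acat2. No member reversed its direction while past the threshold in any of these settings.

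At a score of at least 100, end peaks were left at 0 members with DRB and 11 with DMSO. At that score both-list counts, at an end and anywhere, were 0 for Ser5P shWDR43, 1 for Ser2P shWDR43 and 4 for Ser2P shCtl. With a share of at least 0.5 of the peak inside, Ser2P counts were 4 at an end and 4 anywhere in shWDR43 cells, against 4 and 7 in shCtl cells. At the 5′ end by strand Ser2P counts were 1 in shWDR43 cells and 0 in shCtl cells. With 1 list left out, Ser5P end counts were 7 to 8 in shWDR43 cells, against 1 to 6 in shCtl cells, and counts anywhere were 8 to 10, against 1 to 6. The other counts of WDR43 end peaks and of Pol II peaks moved by at most 1.5 times. Read and ChIP depth are unknown, so an absent peak may lie under a list's threshold.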
